A study of Schizosaccharomyces pombe with 4 samples.

Results

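Tandem intergenic regions are the stretches between neighbouring nuclear genes that point the same way, so each runs from the stop codon of one gene to the start codon of the next. They were taken from the ASM294v3 annotation of Schizosaccharomyces pombe, on chromosome I only below position 3700000, and a probe belonged to a region when its centre lay inside it. Of 3909 intergenic regions with a probe, 1845 were tandem, 927 convergent (between 2 stops) and 1137 divergent (between 2 starts). The 1845 regions held 6582 of 42707 genomic probes. After spots marked as poor were left out, 6126 probes in 1813 regions had a value in both immunoprecipitations, and 1440 regions with at least 2 such probes were tested (373 kept 1 probe and 32 none). The 1845 regions with a probe had a median length of 771 bp. The tested regions had a median of 3 probes, and 730 lay between plus-strand genes and 710 between minus-strand genes.

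The study mapped Cdk11, a cyclin-dependent kinase that partners an L-type cyclin and, in fission yeast, acts on the Mediator complex that links gene regulators to RNA polymerase II. Chromatin of a wild-type strain that carries HA-tagged Cdk11, grown at 32 C in YES medium to mid-log phase and fixed with 3% formaldehyde for 10 min, was broken into pieces of about 500 bp and pulled down with an antibody to the tag. The 4 two-colour arrays form 1 group: replicates 1 and 3 carried immunoprecipitation 1, and replicates 2 and 4 carried immunoprecipitation 2. No untagged strain, mock precipitation or dye swap is analysed here, so antibody background could not be subtracted from any value.

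A tandem region holds both ends of transcription. On its upstream side RNA polymerase II reads past the stop codon, the RNA is cleaved and polyadenylated, and the polymerase is released. On its downstream side lies the promoter of the next gene, where Mediator and the general factors gather. Fission yeast genes sit close together, and small nucleolar RNAs (snoRNAs, guides for the chemical modification of ribosomal RNA) and long non-coding RNAs are transcribed from many of the gaps: 85.5% of the tested regions held an annotated long non-coding RNA.

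Each value is log2(Cy3/Cy5) of the mean spot brightness, set to 0 at the median probe of its array. By the labels Cy3 marks the precipitated DNA and Cy5 the input, but the authors' deposited log ratios put Cy5 over Cy3. Which of the 2 is enrichment is therefore not settled, and values are given as higher in Cy5 (negative) or higher in Cy3 (positive): negative is depletion where Cy3 holds the precipitated DNA and enrichment where Cy5 does. On every array the log ratio fell with spot brightness over all probes (r from -0.47 to -0.65), a dependence that loess removes, so values after loess stand beside the main results. The arrays were noisy: over the tested tandem regions, duplicate arrays of 1 immunoprecipitation correlated at 0.26 and 0.30, pairs from different immunoprecipitations at 0.17 to 0.28, and the means of the 2 immunoprecipitations at 0.35. Only 59.3% of tandem probes were well above background on all arrays, against 78.0% of coding probes, and the arrays lost 1.00% to 16.3% of their probes as poor spots. The array's coordinates matched the reference to the base in all 107 windows of 100000 bp used, since the spread of the reference's GC content over the probe intervals was smallest at a shift of 0 bp. A second check set probe brightness against GC content. By it the best shift was within 60 bp in 77 of the 107 windows (median over the 107, -30 bp), the closely matched windows below.

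The probes that carry the results on gene ends are shown first, read from ASM294v3 on the strand of the flanking genes, 5' to 3'. Each is the lowest (or highest) probe of its gap that lies wholly outside annotated coding transcripts, and capitals mark AATAAA, the core of the polyadenylation signal, or its reverse complement TTTATT. The first group shows low probes past the stop of called genes and, for pgk1, the highest such probe of the same gap.
pgk1 to kap123, lowest probe (chrII:4157689-4157748, minus strand): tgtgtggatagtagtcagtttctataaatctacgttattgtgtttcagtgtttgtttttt
pgk1 to kap123, highest probe (chrII:4157365-4157424, minus strand): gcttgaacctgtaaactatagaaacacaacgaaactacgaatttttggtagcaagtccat
tpi1 to pog1, lowest probe (chrIII:941013-941072, plus strand): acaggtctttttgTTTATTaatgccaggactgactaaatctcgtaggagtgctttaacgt
pho84 to pho1, lowest probe (chrII:4446205-4446264, plus strand): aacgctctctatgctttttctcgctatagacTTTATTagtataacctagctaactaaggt
ssa2 to npp106, lowest probe (chrIII:2059521-2059580, plus strand): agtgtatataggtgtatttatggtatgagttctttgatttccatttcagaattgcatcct

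The second group lies in gaps with a non-coding RNA gene, plus 1 probe from the Cy3 end of the range.
sol1 to ldb1, lowest probe (chrII:1308471-1308530, minus strand): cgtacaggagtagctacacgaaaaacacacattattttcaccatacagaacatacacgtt
sol1 to ldb1, highest probe (chrII:1306880-1306939, minus strand): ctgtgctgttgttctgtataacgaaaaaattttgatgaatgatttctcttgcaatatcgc
gea1 to cwf3, lowest probe (chrII:3873910-3873969, minus strand): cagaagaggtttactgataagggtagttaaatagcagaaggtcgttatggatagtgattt
ura6 to pre10, lowest probe (chrIII:989902-989961, plus strand): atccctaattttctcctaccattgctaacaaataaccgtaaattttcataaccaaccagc
mlo3 to byr2, lowest probe (chrII:1742677-1742736, minus strand): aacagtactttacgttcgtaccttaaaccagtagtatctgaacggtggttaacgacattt
fbp1 to tfg2, highest probe (chrII:197548-197606, minus strand): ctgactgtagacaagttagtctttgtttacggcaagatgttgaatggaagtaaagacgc

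AATAAA or TTTATT stood in 580 of 5167 tandem probes of 60 bases (11.2%), in 18 of the 134 such probes called higher in Cy5 (13.4%) and in 2 of the 18 called higher in Cy3 (11.1%).

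As a class, tandem regions lay between the other 2 kinds of gap. Their median log ratio was -0.06, 0.02, 0.01 and 0.13 on replicates 1 to 4, a mean of 0.04. Here and below, a mean beside medians of the 4 arrays is the median over regions of each region's mean of the 2 immunoprecipitations. Differences between groups of regions are taken between these medians, and their SD is that of the same difference in each immunoprecipitation. Convergent regions had medians of -0.40, -0.26, -0.23 and -0.08 and divergent regions 0.04, 0.12, 0.18 and 0.24, so on each array the order was convergent, tandem, divergent. Tandem exceeded convergent regions by 0.23 ± 0.07 (SD, n = 2 immunoprecipitations) and fell short of divergent regions by 0.10, with a difference of -0.10 ± 0.02. Both differences kept their sign under every setting in which they were recomputed. The class median itself did not: it was -0.16 after loess, and tandem minus coding ORFs turned from 0.07 (-0.02, 0.06, 0.04 and 0.18 on replicates 1 to 4) to -0.19. With 2 immunoprecipitations the smallest two-sided p of an exact sign-flip test is 0.5, so class differences are given with their spread and without a test.

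Within tandem regions the signal leaned with the direction of the genes. Each region was split at its middle, and the side next to the upstream stop minus the side next to the downstream start (the side difference) had a median of -0.16, -0.08, -0.14 and -0.09 on replicates 1 to 4 over 1356 regions, a mean of -0.10. The difference was below 0 in 56.5% of regions, and it was -0.10 both for plus-strand and for minus-strand genes. Convergent and divergent regions, taken left minus right, gave 0.02 and -0.03. After loess the tandem value was -0.06.

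By distance, probes within 100 bp of the stop averaged -0.12 ± 0.07 (SD, n = 2 immunoprecipitations; 600 probes) and those 600 to 800 bp past it 0.05 ± 0.09. Towards the start codon the values were 0.02 ± 0.04 in the last 100 bp and -0.10 ± 0.10 at 800 to 1200 bp. Probes within 250 bp of a stop and over 500 bp from a start averaged -0.14 (991 probes), and those over 500 bp from a stop and within 250 bp of a start 0.03 (1014 probes). Taken within each immunoprecipitation, the step from the first 100 bp to 600 to 800 bp past the stop was 0.17 ± 0.02, and the step between the 2 ends 0.17 ± 0.04 (SD, n = 2 immunoprecipitations). After loess the first of these steps was nearly gone, with -0.14 in the first 100 bp and -0.12 at 600 to 800 bp past the stop. There the first 100 bp lay above the bins from 200 to 400 bp (-0.26 and -0.27). The 2 ends were at -0.21 near the stop and -0.13 near the start after loess. Convergent regions ran lower at the same distance from a stop, with -0.34 ± 0.13 at 300 to 400 bp against -0.06 ± 0.12 in tandem regions, and divergent regions ran higher at the same distance from a start.

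**Figure D1:**
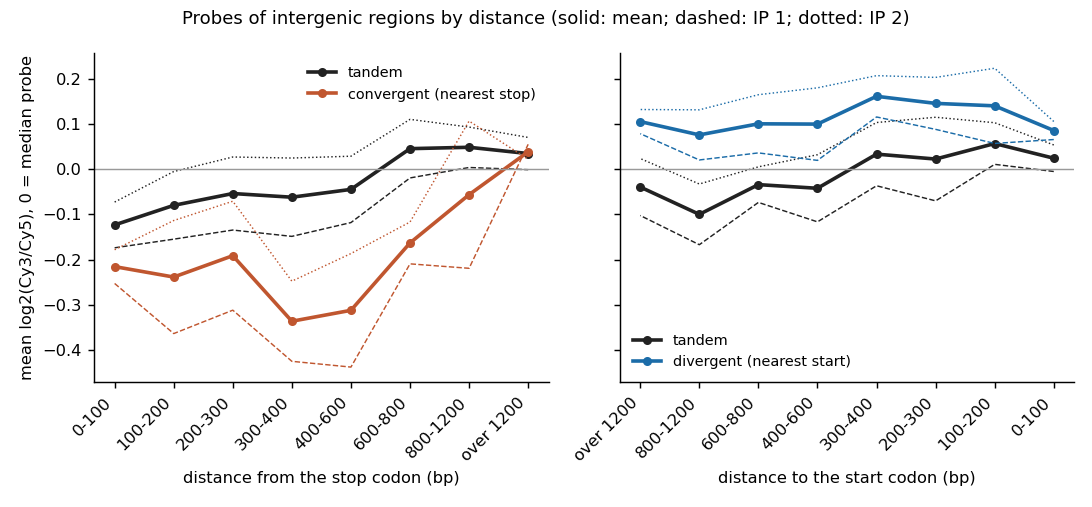
Mean log2(Cy3/Cy5) of intergenic probes by distance in bp from the nearest stop codon (left) or to the nearest start codon (right), with solid lines for the mean and broken lines for the 2 immunoprecipitations. Without loess, tandem regions run from -0.12 next to the stop to about 0.05 beyond 600 bp. They lie above convergent regions up to 1200 bp and below divergent regions throughout.

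Some single regions lay much lower. By limma on the 2 immunoprecipitation means, adjusted over all 6726 windows of gaps and coding ORFs, 42 of 1440 tandem regions were called higher in Cy5 (2.92%, adjusted p under 0.05), where the share over all windows was 3.45%. In the other direction 7 were called higher in Cy3 (0.486%, against 0.357% over all windows). The share for Cy5 was 10.1% among convergent and 0.636% among divergent regions. Among single probes, 154 of 6126 tandem probes were called higher in Cy5 (2.51%, against 2.31% of all probes) and 21 higher in Cy3 (0.343%, against 0.226%). The count of 42 regions changed with the arrays used: it was 54 without replicate 1, 13 without replicate 2, 24 without replicate 3 and 27 without replicate 4.

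The 12 regions at the Cy5 end follow genes of glycolysis (tpi1, pgk1, tdh1), translation (tef103, rpl6, rpl1801, rpl3702), protein folding (ssa2, bip1) and phosphate uptake (pho84), besides knh2 and ura6. The lowest lies between pho84, an inorganic phosphate transporter, and pho1, the secreted acid phosphatase, on chromosome II at 4445971 to 4447556. Its 7 probes averaged -1.93, -1.72, -1.65 and -1.52 on replicates 1 to 4, which is 3.26-fold brighter in Cy5 (limma adjusted p = 0.000491). All 4 arrays were low there, and both flanking ORFs were called too, at -2.48 for pho84 and -1.93 for pho1. The region lies outside the closely matched windows. The best brightness shift of its window was 100 bp, while the GC check gave 0 bp.

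Past pgk1, which encodes phosphoglycerate kinase of glycolysis, the gap to kap123 (chromosome II, 4156595 to 4158171, minus strand) read -2.23, -1.42, -1.51 and -1.54 (adjusted p = 0.00103). Replicate 1 read lowest. The 4 values do not average the same probes, since replicates 1 and 2 lack the last probe of the gap. Its probe 164 bp past the stop, in the annotated transcript end, averaged -2.75 and the printed probe at 453.5 bp, beyond the transcript, -2.13. The printed high probe at 777.5 bp was at -0.46 (adjusted p = 0.679). The last probe, in the transcript start of kap123, an importin gene, had values on replicates 3 and 4 only (-1.29 and -0.48). The low probes thus lay on the pgk1 side, and the kap123 ORF was at -0.27.

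Past tpi1, the triosephosphate isomerase gene, the gap to pog1 read -2.35, -1.43, -1.29 and -1.22 (adjusted p = 0.00114). Its lowest probe was the printed one between the 2 transcripts, at -2.33. The gap from tdh1 (glyceraldehyde-3-phosphate dehydrogenase) to tfb5 read -1.28, -1.49, -1.93 and -1.18 (adjusted p = 0.00136). Across that gap the 4 probes stepped through -2.24, -1.66, -1.26 and -0.72 from 87.5 to 930.5 bp past the stop.

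The chaperone gene ssa2, an Hsp70, showed the same within a short gap. Its region up to npp106 read -1.72, -1.43, -1.06 and -0.78 (adjusted p = 0.00418), and the ssa2 ORF was at -2.11. From the stop onward the 5 probes read -2.64, -1.72, -1.73, -0.58 and 0.44, so the last one, 20.5 bp from the start codon of npp106, was on the other side of 0. The remaining regions of this end follow tef103 (elongation factor 1-alpha; -1.52), rpl6 (-1.36), rpl1801 (-1.29), bip1 (the Hsp70 of the endoplasmic reticulum; -1.26) and rpl3702 (-1.25), or lie between knh2, a cell surface protein gene, and rpl2302 (-1.59), both of which were called themselves. The gap from ura6 to pre10 is described with the non-coding RNAs.

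**Figure D2:**
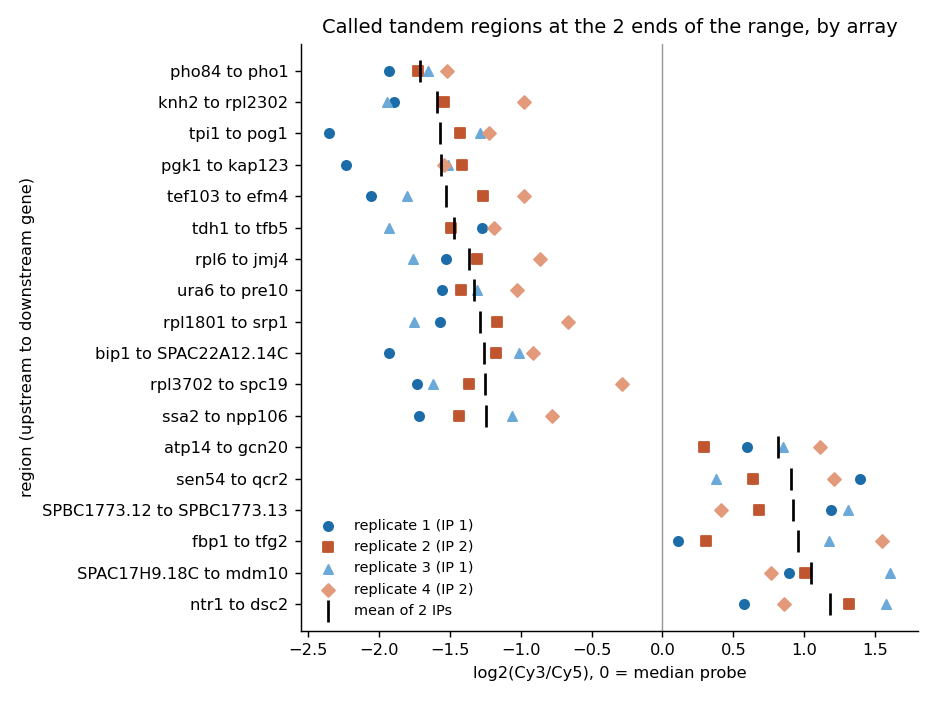
Log2(Cy3/Cy5) of the 18 called tandem regions named at the 2 ends of the range, 1 symbol per array and a bar for the mean of the 2 immunoprecipitations (IP). All 4 arrays of the 12 upper regions lie below 0, with replicate 4 nearest to 0 in most, and all 4 arrays of the 6 lower regions lie above 0.

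Side differences were called in few regions: 18 of 1356 tandem regions were lower at the stop (1.33%, against 0.774% over all gaps) and 3 higher (0.221%, against 0.184%). The shares over all gaps include the tandem regions. In the other gaps, taken left minus right, 3 were called negative and 2 positive. Limma gave all regions the same standard error (0.465), so these calls follow the size of the difference and not a region's own spread. Some called regions lacked 1 sign on all arrays, such as mfc1 to SPAPB1A11.02 (-3.65 and 0.27 in immunoprecipitations 1 and 2). Without replicate 4 no side difference passed in limma (88 were lower at an unadjusted p under 0.05). Without replicate 3 there were 3 lower, without replicate 2 there were 5 and without replicate 1 there were 14. The median side difference meanwhile lay between -0.11 and -0.095. Among regions with at least 2 probes on each side and 1 sign on all arrays, those lower at the stop included ssa2 to npp106 (-1.96, adjusted p = 0.0144) and knh4 to apc10 (-1.86, adjusted p = 0.0156). The cell wall gene psu1, followed by ssd1, gave -1.64 (adjusted p = 0.0469), and met26, the methionine synthase gene, followed by thi9, also gave -1.64. On replicates 1 to 4 the value at met26 was -1.85, -1.51, -1.51 and -1.63, the closest agreement of arrays among these. In the psu1 gap 3 probes up to 697.5 bp past the stop lay between -1.39 and -1.93, while 4 probes further on lay between -0.58 and 0.55.

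Gaps that follow a called gene were lower than gaps that lead up to one. A gene was taken as called when its coding ORF passed the same limma test towards Cy5 (134 of 3848 ORFs, 3.48%), and 1142 tandem regions had both neighbours measured. In 46 regions only the upstream gene was called. Their median was -0.97, -0.53, -0.66 and -0.23 on replicates 1 to 4 (mean -0.61), 40 lay below 0 and 12 were called (26.1%). In 42 regions only the downstream gene was called, and their median was -0.28, -0.07, -0.09 and 0.13 (mean -0.04), with 22 below 0 and 1 called. The called ORFs were alike in level, at medians of -1.23 upstream and -1.19 downstream.

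The regions past a called gene thus lay lower than those ahead of one on each array, by -0.69, -0.46, -0.57 and -0.37. The difference was -0.63 in immunoprecipitation 1 and -0.38 in immunoprecipitation 2 (SD 0.17, n = 2). Between the medians of the regions' means it was -0.56. This contrast was not tested, for the same reason as the class differences. With genes called anew under each other setting the difference ran from -0.24 (loess with GC correction) to -0.74 (normexp). Regions with neither neighbour called had a median of 0.06 (1048 regions, 14 called higher in Cy5), and the 6 regions with both called had -0.46. The 2 groups of regions also differed in length, with medians of 959.5 bp past and 1307 bp ahead of a called gene.

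The distance at which the signal ended differed between the 2 sides. Inside called upstream ORFs the last 200 bp averaged -1.53 ± 0.26 (SD, n = 2 immunoprecipitations). Past their stop the mean was -1.22 ± 0.32 in the first 200 bp, -1.03 ± 0.22 at 200 to 400 bp, -0.75 at 400 to 600 bp, -0.36 at 600 to 1000 bp and 0.11 beyond 1000 bp. Sheared fragments of about 500 bp limit how sharply an edge can appear on either side. On the other side the first 200 bp inside called downstream ORFs averaged -0.98 ± 0.09, the last 200 bp ahead of their start -0.54 and the next 200 bp 0.04, with later bins between -0.13 and 0.03. After loess with GC correction the bins past a stop read -0.74, -0.80, -0.69, -0.37 and -0.09, and those ahead of a start -0.58, -0.11, -0.25, -0.23 and -0.10.

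**Figure D3:**
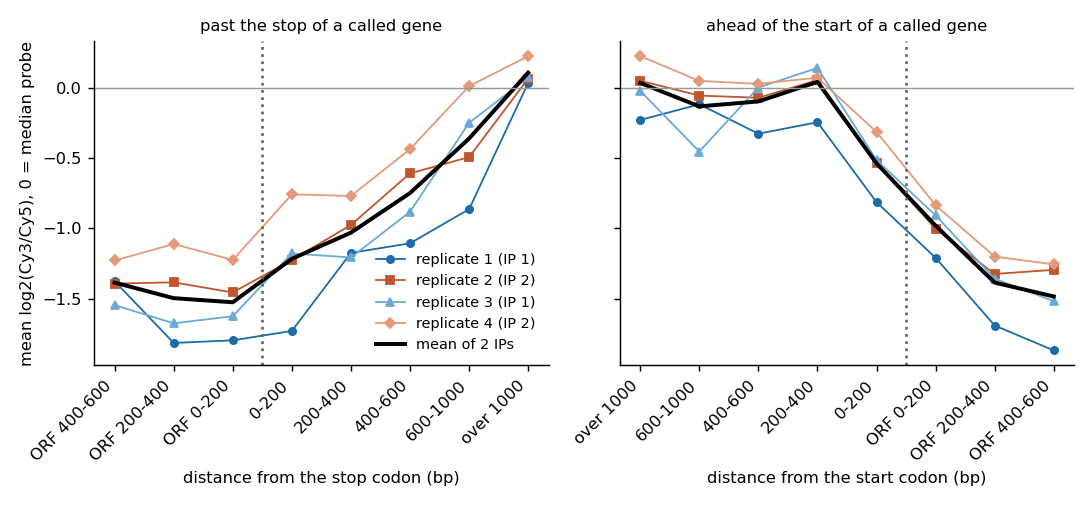
Mean log2(Cy3/Cy5) of probes in bins of distance (bp) from the stop codon of a called upstream gene (left) and from the start codon of a called downstream gene (right), with the adjoining 600 bp of coding sequence; 1 thin line per array, thick line for the mean of the 2 immunoprecipitations (IP). Past the stop the mean stays below -0.7 up to 600 bp, while ahead of the start it is near 0 from 200 bp on.

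Other kinds of gap showed the same 2 sides. In convergent regions the distance from the stop of a called gene gave -1.10, -0.90, -0.75, -0.48 and -0.17 in the same 5 bins. In divergent regions the bins from the start of a called gene gave -0.37, -0.11, -0.17, -0.03 and 0.06. Without any call, across all 1142 tandem regions, a gap's value correlated with its upstream ORF at r = 0.38 and with its downstream ORF at 0.08. These are descriptions across regions that share arrays. After loess the 2 values of r were 0.21 and 0.07. Without loess, the upstream r was 0.38, 0.37 and 0.42 within gaps up to 750 bp, 750 to 1500 bp and longer.

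The same genes could be followed on both sides where a called gene had a tested tandem gap at each end, which held for 21 genes. The gap past the stop was lower than the gap ahead of the start in 15 of them, and the median difference was -0.58, -0.28, -0.48 and -0.27 on replicates 1 to 4. For the other 424 genes with 2 such gaps the median was 0.03, and the gap past the stop was lower in 47.4%. The largest differences were those of tpi1 (-1.57 past the stop, 0.10 ahead of the start), knh2 (-1.59 and 0.05), ssa2 (-1.25 and 0.10) and eca39, a branched-chain amino acid aminotransferase gene chosen after its values were seen (-1.19 and 0.08). At pho1 the order was the other way (-0.52 and -1.71), where the gap ahead of the start is the one that follows pho84. The gap past knh2 also has a called gene at its other end, rpl2302. The median over the 21 genes of each gene's mean difference was -0.24, and -0.19 for the same genes after loess. After loess the gap past the stop was lower in 12 of the 21, as with loess and GC correction and in the deposited table. With normexp it was lower in 16. Genes called anew after loess were only 5, with a difference of 0.02, and it was 0.08 over 11 genes with loess and GC correction, so this comparison turned with the set of genes.

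**Figure D4:**
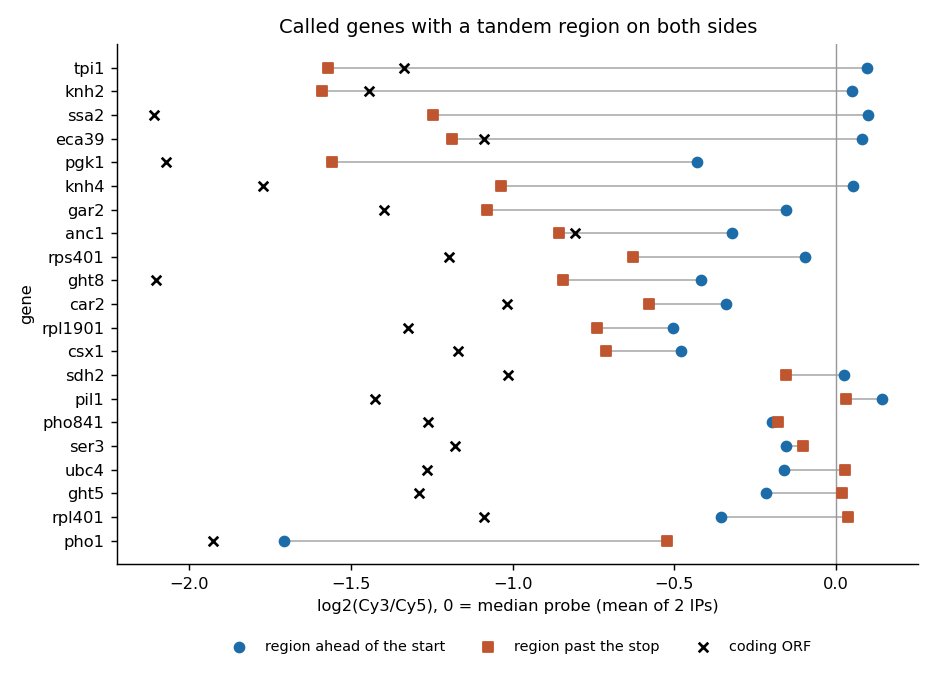
Log2(Cy3/Cy5), mean of the 2 immunoprecipitations, for the 21 called genes with a tested tandem region on both sides: region ahead of the start (circle), region past the stop (square) and coding ORF (cross). In 15 genes the square lies to the left of the circle.

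Several long gaps are described here. The gap from dis1 to pil1, the eisosome gene, spans 3222 bp with 13 probes, and only the 2 probes within 198.5 bp of the pil1 start were low (-1.25 and -1.27, limma adjusted p = 0.0635 and 0.0552), while the others lay between -0.01 and 1.24. On the far side of pil1 the gap to duc1 averaged 0.03 over 17 probes, with -0.87, -0.89 and -1.19 at its 3 probes up to 695.5 bp past the stop, none of them called. The 2 longest gaps, from rpb1 to yox1 (51524 bp, 40 probes) and from ppc1 to meu27 (78895 bp, 29 probes), span the centromeres of chromosomes II and III, and they averaged -0.08 and -0.04, neither called. The third, from pcs2 to hsr1 (8310 bp), averaged 0.20 and was not called.

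By pathway, the gaps past ribosomal protein genes were low. Their median over 50 regions was -0.84, -0.51, -0.58 and -0.30 on replicates 1 to 4 (mean -0.53, against 0.04 over all tandem regions), 45 lay below 0 and 11 were called higher in Cy5 (2.92% over all tandem regions). The 45 gaps ahead of ribosomal protein genes had a median of -0.11 with 2 called. The 7 gaps past glycolytic genes had a median of -1.21 with 4 called (2.92% over all tandem regions), and the 8 ahead of such genes 0.04 with none called by limma, or at an unadjusted p under 0.05. Neither side was low for ribosome biogenesis genes (18 gaps past them at 0.20, 16 ahead at -0.0024) or meiotic genes (26 at 0.11, 27 at 0.15). None of these 4 groups held a limma call, and 0, 2, 2 and 1 gaps were lower at an unadjusted p under 0.05. Transporter genes gave -0.42 over 7 gaps past the stop (1 called, pho84 to pho1) and 0.10 over 7 ahead of the start. Chaperone genes gave 0.14 over 7 gaps past the stop, 2 of them called, and 0.12 over 7 ahead of the start. For genes of Mediator itself, 2 gaps past the stop (srb8 to rim2 and med15 to SPBC146.02) averaged -0.65 and -0.53 without a call (1 of them lower at an unadjusted p under 0.05). Both averages came from immunoprecipitation 1 (-1.30 and -1.19), while immunoprecipitation 2 gave -0.0045 and 0.13. The 8 gaps ahead of the start of Mediator genes had a median of 0.01 without a limma call (1 lower and 1 higher at an unadjusted p under 0.05).

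The promoters of ribosomal protein genes carry the HomolD box, an element that in fission yeast stands in for a TATA box. The box CAGTCACA, or TGTGACTG on the other strand, stood within 300 bases ahead of the annotated transcript start in 25 of these 45 gaps (55.6%), against 35 of all 1440 (2.43%). Gaps with the box had a median of -0.10 and those without it -0.12. The box is shown in capitals for the lowest and the highest of the 25 gaps, chosen after their values were seen.
knh2 to rpl2302, box (chrIII:1311529-1311588, plus strand): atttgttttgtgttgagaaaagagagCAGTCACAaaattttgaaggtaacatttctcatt
pmp31 to rpl101, box (chrIII:612602-612661, minus strand): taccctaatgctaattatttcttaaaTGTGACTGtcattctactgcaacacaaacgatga
The knh2 to rpl2302 gap was at -1.59, while the gap ahead of rpl101, a ribosomal protein gene as well, was at 0.60 (1.59, 0.01, 0.21 and 0.57 on replicates 1 to 4; adjusted p = 0.195).

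Of the 42 regions called higher in Cy5, 14 followed a called gene, 1 lay ahead of one only, 14 had neither neighbour called and 13 had a neighbour with under 2 probes. Of those 13, 9 follow ribosomal protein genes, which are short. In the gap from rpl501 to new4, however, the neighbour with under 2 probes is new4, and the rpl501 ORF was at -1.39. Of the 14 with neither neighbour called, 5 hold a snoRNA gene. In all, 6 of the 15 tested gaps with an annotated snoRNA gene were called, against 2.92% over all tandem regions (his5 to opi10 is the sixth), and their median was -0.69, with 14 of 15 below 0. The 41 gaps with a tRNA gene had a median of -0.16 and the 19 with an rRNA gene -0.17, with no limma call in either (4 and 2 were lower at an unadjusted p under 0.05).

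In several of these gaps low probes lay inside the RNA gene or near its 3' end. In the gap from pdi4 to omh6 the snoRNA gene snR30 (chromosome I, 3394875 to 3395200, plus strand), whose RNA is needed for processing of ribosomal RNA, runs against the coding genes. Ahead of snR30 2 probes averaged 0.21, the probe inside read -1.50, and the 2 probes past its 3' end, which also lie in the transcript end of pdi4, read -2.86 and -2.11. The first of these read -3.31, -3.21, -2.49 and -2.44 on replicates 1 to 4. The side of this gap next to pdi4 was the lower one (side difference -2.36, adjusted p = 2.68e-04), although neither pdi4 (0.06) nor omh6 (0.31) was called.

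The gap from sol1 to ldb1 holds mamRNA, a long non-coding RNA bound by the meiotic regulators Mmi1 and Mei2, and the snoRNA gene snoU14 just past it, both against the coding genes. Its 10 probes gave the largest side difference among named regions with at least 2 probes on each side, -2.71 (-3.29, -2.37, -2.84 and -2.31 on replicates 1 to 4; adjusted p = 7.17e-06). The lowest probe, printed above, lies between mamRNA and snoU14 and read -3.43, -3.10, -3.55 and -2.91. Probes inside mamRNA read -2.92 and -1.97 and the probe past snoU14 -2.47, while the 5 probes nearest the ldb1 start lay between 0.00 and 0.42. All 4 arrays were low inside mamRNA and on both sides of snoU14, which itself holds no probe.

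In the gap from gea1 to cwf3 the snoRNA gene snoR61 runs with the coding genes. Ahead of it 2 probes averaged 0.07, inside it 2 probes read -1.44 and -2.02, and past its 3' end the probes read -2.15 and, 541.5 bp on, -0.42. In the gap from SPCC1672.09 to mis16, ahead of sno12 the 5 probes averaged -0.56 and past it 2 probes averaged -1.74. The gap from his5 to opi10 ran the other way: the 3 probes ahead of snR5 averaged -1.54 and the 2 past it -0.25, and 2 of those low probes lie in the non-coding gene SPNCRNA.1499 on the same strand. Over all snoRNA genes next to tandem probes, the first 300 bp past the 3' end averaged -1.04 ± 0.03 (SD, n = 2 immunoprecipitations; 15 probes, 14 genes) and the last 300 bp ahead of the 5' end -0.60 ± 0.33 (18 probes, 15 genes). The difference was -0.44 ± 0.31 (SD, n = 2 immunoprecipitations), with -0.23 in the first and -0.66 in the second, and carries no test.

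The gap from gpi12 to bet3, which holds snr79, was also called (-1.46, -1.01, -1.60 and -0.65 on replicates 1 to 4; adjusted p = 0.0101), and is named after its values were seen.

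Among the 9 called gaps with neither neighbour called and no snoRNA gene are 2 that the naming rule took in and that hold a long RNA. Between ura6 and pre10 lies rrk1, the gene of the RNA subunit of RNase P, which trims tRNA precursors; it runs against the coding genes. The gap read -1.55, -1.42, -1.31 and -1.03 (adjusted p = 0.00255), and the probes along rrk1 read -0.32, -1.83 and, across its 3' end, -2.25, then -0.92 past it. Between mlo3 and byr2 lies nam1, a non-coding RNA annotated as repressing byr2, the kinase gene that follows it on the same strand. That gap read -1.47, -1.15, -0.64 and -1.03 (adjusted p = 0.00914). The first 3 probes of nam1 lay between -0.70 and 0.57, the last 2 with their centre inside it read -1.57 and -2.09, and the probe across its 3' end read -1.98. That end faces byr2, whose ORF was at -0.15.

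**Figure D5:**
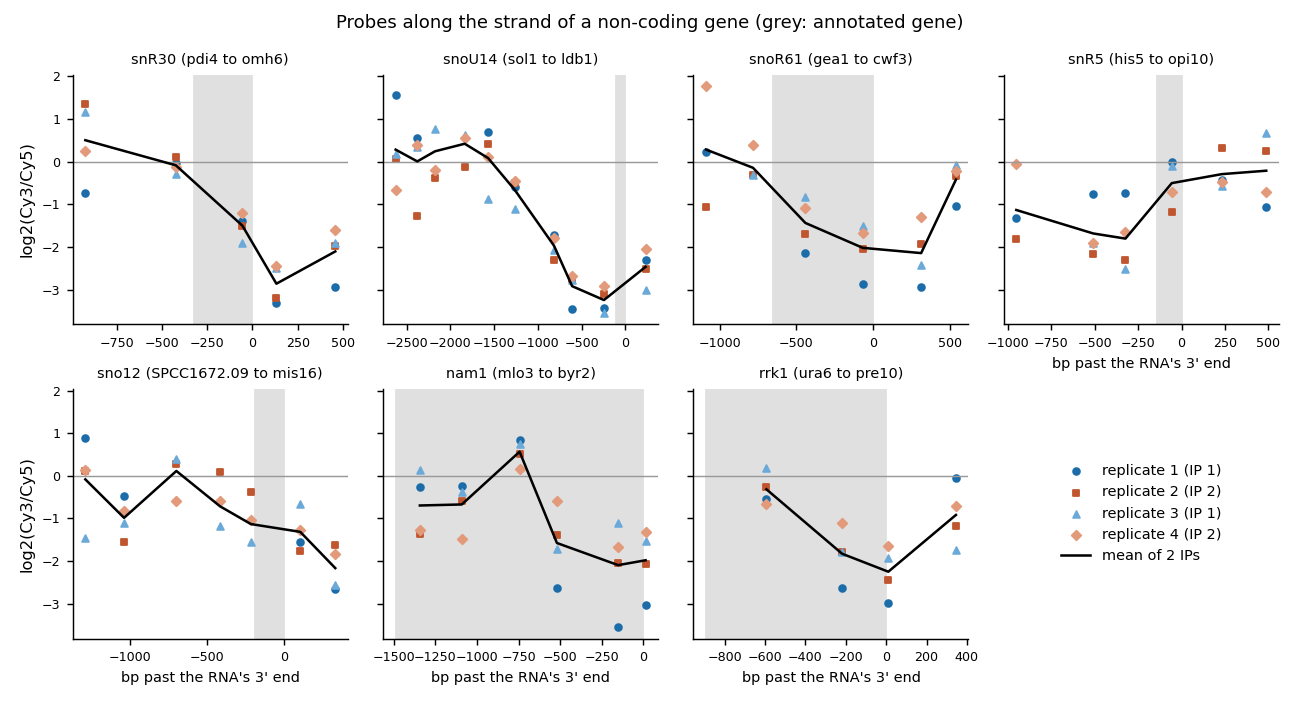
Log2(Cy3/Cy5) of the probes of 7 tandem regions, placed along the strand of a non-coding RNA gene in bp past its annotated 3' end (0), with the gene shaded; 1 symbol per array, line for the mean of the 2 immunoprecipitations (IP). In the 7 gaps shown, which are those named by the rule and leave out gpi12 to bet3, the lowest probe lies inside the gene or past its 3' end for snR30, snoR61, sno12, nam1 and rrk1 and ahead of it for snoU14 and snR5.

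Calls towards Cy3 were few and of modest size. The gap from ntr1, a splicing factor gene, to dsc2 (330 bp) read 0.57, 1.32, 1.57 and 0.86 (adjusted p = 0.0052), and SPAC17H9.18C to mdm10 averaged 1.05 (adjusted p = 0.0125). The gap past fbp1, the gluconeogenic fructose-1,6-bisphosphatase gene that glucose represses, read 0.11, 0.31, 1.17 and 1.55 (adjusted p = 0.0308), with replicates 1 and 2 close to 0. SPBC1773.12 to SPBC1773.13 (0.92), sen54 to qcr2 (0.90) and atp14 to gcn20 (0.82) complete the gaps named by the rule at this end. Each of these 6 gaps has 2 or 3 probes, and none follows or precedes a called gene among the 5 with both neighbours measured. The highest call, SPCC16C4.04 to pop23, averaged 1.23 (limma adjusted p = 0.00429). It had values on replicates 3 and 4 only, so the naming rule left it out. After loess no tandem region was called higher in Cy3 by limma (64 passed an unadjusted p under 0.05), while 9 were with loess and GC correction and 10 in the deposited table.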

How the data were processed

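Chromatin from 1 group was hybridised to 4 two-colour arrays, 2 per immunoprecipitation. Per the file headers, the deposited scanner files give spot intensities, the percent of a spot's pixels above local background and, as a fraction, the squared correlation of the channels over pixels. For the authors' deposited table of log2 values no source states scale, centring or direction; against the scanner values they follow loess-normalised log2(Cy5/Cy3) (r from 0.997 to 0.999), with column medians of 0.033, -0.0066, -0.010 and -0.0075. No source used here names the build of the array's coordinates.

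Analysed was log2(Cy3 mean/Cy5 mean) without background correction, centred on each array's median after poor spots were left out. A region's side difference is its probes nearer the upstream stop minus those nearer the downstream start. Duplicate arrays were averaged per immunoprecipitation and windows averaged over probes. Differences from 0 were tested with limma 3.58.1 (R 4.3.3) on 2 immunoprecipitation means, adjusted by Benjamini-Hochberg over all windows, probes or side differences, with calls at 0.05. Both immunoprecipitations may come from 1 culture, so p-values may measure technical spread only. For side differences limma used 1 spread shared by all regions. The procedure was tested on simulated data. Median intensities were 2889 to 4862 in Cy5 and 5097 to 6341 in Cy3; with 4 arrays the precision is limited by their number.

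The regions and gene lists were chosen with earlier results of these data known. Named were the 12 most extreme called regions in each direction with 1 sign on all arrays, the 6 largest side differences in each direction, the 3 longest regions, up to 4 regions per gene list and 4 for each mixed class of neighbours. Chromosome I from position 3700000 was left out, because its coordinates did not match the reference. Alternatives were loess, loess with GC correction, normexp, the deposited table, centring on the mode, bright probes only, closely matched windows, other probe minimums, regions without non-coding genes and leaving out each array. GC correction without loess, and the contrasts around called genes and against ORFs under each setting, were added after the data were seen.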

Additional observations from a re-analysis of the deposited data

Results flagged for a closer look

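Among 27 sets of 4 array values examined, 1 held an array far from the others. In the gap from pgk1 to kap123 replicate 1 read -2.23, while the other arrays lay between -1.42 and -1.54. The gap between replicate 1 and its nearest neighbour was a larger share of the whole range than Dixon's test allows at the 95% level. Chance gives such a value in about 1 of 20 sets, so 1 in 27 sets is near that rate. The probe in the transcript start of kap123 had no value on replicates 1 and 2, so the 4 values average different probes. Whether replicate 1 stands apart over the probes shared by all arrays was not tested. The region remained called without replicate 1.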

How the results depend on the processing

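Tandem minus convergent and tandem minus divergent kept their sign in every setting in which they were recomputed, and so did the median side difference and the contrast of regions past and ahead of called genes. The latter was not recomputed for other probe minimums or regions without non-coding genes, nor the class differences for at least 3 probes. Other values depended on the processing. Causes were not tested. In this order the settings below give tandem regions called higher in Cy5 and Cy3 (42 and 7), probes called (154 and 21) and side differences called lower and higher at the stop (18 and 3). Only counts that moved by over 1.5 times are given.

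After loess, 0 regions were called higher in Cy3 (64 at an unadjusted p under 0.05), 768 and 169 probes, and 56 and 33 side differences. With loess and GC correction 88 regions were called higher in Cy5, 778 and 208 probes, and 0 and 0 side differences (167 and 109 at an unadjusted p under 0.05). The deposited table gave 122 regions, 825 and 177 probes, and 0 and 0 side differences (168 and 101 unadjusted). Normexp gave 20 regions higher in Cy3 and 4 and 0 side differences (51 higher unadjusted). Centring on the mode gave 26 and 2 regions, 9 probes higher in Cy3, and 1 and 0 side differences (42 higher unadjusted); it moved the median of all windows to -0.14. Bright probes only gave 4 regions higher in Cy3 and 11 lower side differences, and closely matched windows 101 and 10 probes and 5 higher side differences. At least 3 probes gave 20 regions higher in Cy3. Regions without a non-coding gene gave 12 and 3 calls and 0 and 1 side differences (7 lower unadjusted), among 195 regions. At least 2 probes on each side gave 10 lower side differences, and GC correction without loess 82 and 22 regions. Of the 42 regions, 21 were called after loess, 30 with loess and GC correction and 30 in the deposited table.

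The tandem median of 0.04 turned to -0.16 after loess, -0.13 with loess and GC correction, -0.17 in the deposited table, -0.091 centred on the mode and -0.061 for bright probes only. Tandem minus coding ORFs turned to -0.19, -0.14 and -0.20 in the first 3 of these. Tandem minus convergent moved to 0.15, 0.14 and 0.15 there and to 0.32 with normexp, and tandem minus divergent to -0.073 with loess and GC correction, -0.12 with normexp and -0.16 for bright probes. The median side difference moved to -0.058, -0.044 and -0.052 in the first 3, and to -0.14 with at least 2 probes on each side. The regions past minus ahead of called genes gave -0.24 with loess and GC correction, -0.34 in the deposited table and -0.74 with normexp. The same contrast within a gene, with genes called anew, turned to 0.025 after loess, 0.080 with loess and GC correction and 0.027 in the deposited table, and gave -0.63 with normexp and -0.44 centred on the mode; for the same 21 genes it was -0.19, -0.25 and -0.18 in the first 3.

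Leaving out each array in turn, regions called ranged from 13 to 54 in Cy5 and from 0 to 17 in Cy3 (40 at an unadjusted p under 0.05 without replicate 3), probes from 49 to 121 and from 0 to 22, and side differences from 0 to 14 and from 0 to 4. The tandem median ranged from -0.029 to 0.055, turning without replicate 3 (-0.029) and without replicate 4 (-0.012), and tandem minus divergent from -0.13 to -0.10. The immunoprecipitation left with 1 array was taken to vary like the other. Of the 18 regions named at the ends of the range, 9 were no longer called without replicate 2. No paired analysis was possible because there is only 1 group. Only 59.3% of tandem probes were well above background on all arrays, which limits what could be detected.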

Other observations

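Downstream of rps1601, the gap that leads to cdk11, the gene of the tagged kinase, was called higher in Cy5 at -0.96 although its 4 arrays did not share a sign; it was chosen after its values were seen. Among called genes with a tandem gap on both sides, ght5, a hexose transporter gene, and ubc4, a ubiquitin-conjugating enzyme gene, had gaps near 0 on both sides (0.02 and -0.22, 0.03 and -0.16, past the stop and ahead of the start), while their ORFs were at -1.29 and -1.26; both were chosen after their values were seen. The hexose transporter gene ght8 had -0.84 past its stop and -0.42 ahead of its start.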
